A study of Homo sapiens with 24 samples.

Results

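The 46 genes described here encode the machinery that copies DNA, and all 46 were counted at least once in each of the 24 libraries of a table of 54583 genes. They were chosen by function, and the only further condition was that no library had a count of 0, which 12058 genes met. The 24 libraries came from PANC-1, an established human cell line of pancreatic ductal carcinoma, treated for 6 h with DMSO (the solvent control), 40 µM CID661578 or 5 µM cercosporamide. The labels call both compounds inhibitors of MNK2, a kinase that phosphorylates the cap-binding translation factor eIF4E. The study reports that CID661578 did not change MNK2 kinase activity in vitro but largely removed MNK2 from its partner eIF4G, whereas cercosporamide inhibited the kinase. It also reports that eIF4E phosphorylation rose in PANC-1 with either compound at 40 µM. Each treatment had 4 replicates, which the methods of the study describe as biological. Each of the 12 cultures gave a library of total cytosolic RNA and a library of RNA pooled from sucrose gradient fractions with more than 3 ribosomes per mRNA. A culture, matched by treatment and replicate number, is called a plate here, a unit that the labels do not name. The compounds were given at different doses, the groups carry no genetic change relative to each other, and a single cancer line was used, so the spread between replicates is that between cultures of this line.

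DNA replication begins when the origin recognition complex (ORC1 to ORC6), CDC6 and CDT1 load the ring-shaped MCM2-7 helicase onto DNA, a step that geminin (GMNN) blocks once S phase is under way. CDC45 and the GINS complex then turn the loaded ring into an active helicase with the help of MCM10, primase and polymerase alpha start each strand, and polymerases delta and epsilon extend the strands while tethered to the PCNA clamp that replication factor C (RFC1 to RFC5) loads. Replication protein A (RPA1 to RPA3) coats the exposed single strands, FEN1 and LIG1 trim and seal Okazaki fragments, and ribonucleotide reductase (RRM1, RRM2), thymidylate synthase (TYMS) and thymidine kinase (TK1) supply nucleotides. UHRF1 carries DNA methylation onto the new strand. Many of these genes are transcribed at the transition from G1 to S phase under the control of E2F factors, which are inhibited by RB1.

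Promoter sequence was not used in the choice of the genes. Windows from 250 bases before to 50 bases after each start, from the RefSeq promoter table of GRCh38.p14, were searched on both strands for the letters of 4 E2F motifs, TTTCCCGC, TTTCGCGC, TTTGCCGC and TTTGGCGC. A window with a match was found for 20 of the 40 replication genes with an entry (50%), against 620 of the 8546 tested genes with an entry (7.25%) and 1090 of all 27305 genes (3.99%). MCM4, MCM5, GINS4, RPA2, RPA3 and POLD3 had no entry. Counted by window, the matches were 21 of 53 for replication genes and 1164 of all 35116 (3.31%). The promoters below, 60 bases each and 5′ to 3′ in the direction of transcription, are shown because they belong to a helicase subunit called higher in polysomes after cercosporamide (MCM3), the helicase subunit with the largest change in translation after that compound (MCM6), the loader CDT1 and the clamp PCNA. Capitals mark the motif, and in MCM6 they mark 2 overlapping matches on opposite strands. The marked matches begin 174, 90, 35 and 59 bases before the start of transcription in MCM3, MCM6, CDT1 and PCNA. Matches not shown begin at -4 in MCM3 and, as a further overlapping pair, at -152 and -148 in MCM6.
MCM3, chr6:52284883-52284942, minus strand: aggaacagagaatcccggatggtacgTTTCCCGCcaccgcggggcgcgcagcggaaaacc
MCM6, chr2:135876500-135876559, minus strand: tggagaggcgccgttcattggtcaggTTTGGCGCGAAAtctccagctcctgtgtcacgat
CDT1, chr16:88803728-88803787, plus strand: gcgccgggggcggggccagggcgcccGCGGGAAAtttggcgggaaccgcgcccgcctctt
PCNA, chr20:5126648-5126707, minus strand: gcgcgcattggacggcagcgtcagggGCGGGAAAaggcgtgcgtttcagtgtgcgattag
The 20 genes with a match were MCM2, MCM3, MCM6, MCM7, ORC3, CDC6, CDT1, GMNN, GINS1, GINS2, GINS3, PCNA, RFC3, POLA1, POLA2, POLE, POLE2, LIG1, TYMS and UHRF1. A match is a run of letters and was not examined for binding.

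Levels are given as CPM, the reads counted on a gene relative to the size of its library after edgeR's TMM scaling. The polysome library of replicate 4 with cercosporamide held 1592459 reads, and the other 23 held between 9268041 and 12184749. The lowest count of any replication gene was 6, for ORC2 in that shallow library. Keratins 8, 18 and 19 and vimentin, which this line expresses, were high in all libraries, while PTPRC, CD3E, INS, PRSS1 and ALB, markers of blood, islet, acinar and liver cells, were at 0 in all 24. KRT7, EPCAM and SOX9, further epithelial markers, were low but detected in all libraries, PECAM1, VWF, GCG and CPA1 had at most 5 counts in any library, and CD68, a lysosomal protein listed as a blood marker, had 443 to 858 CPM in total RNA. The table lists no added RNA standard, so each value is relative to the other genes of its library, and fewer cells in S phase cannot be told apart from less replication mRNA per cell. As a share of all counts, the 46 genes took up 0.372% ± 0.0464 (SD, n = 4) of total RNA and 0.507% ± 0.0913 of polysome-associated RNA with DMSO. These shares were 0.322% and 0.456% with CID661578, and 0.310% and 0.538% with cercosporamide.

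Levels in total RNA with DMSO, expressed as CPM per kb of the canonical transcript, spread widely even within complexes whose subunits are needed in equal numbers. MCM7 was the most abundant helicase subunit at 123 ± 4.15 (SD, n = 4), followed by MCM3 at 37.0 ± 12.4, MCM5 at 27.1 ± 2.56, MCM4 at 26.9 ± 5.69, MCM6 at 11.8 ± 3.65 and MCM2 at 9.90 ± 1.93. Among ORC subunits, ORC6 at 27.2 ± 3.83, ORC3 at 26.7 ± 2.64 and ORC5 at 22.0 ± 4.99 lay close together, and ORC4 at 8.59 ± 3.59, ORC1 at 5.86 ± 3.20 and ORC2 at 2.41 ± 0.663 were lower. The levels of neighbours in these orders differed by less than the larger of their SDs for MCM3, MCM5 and MCM4, for MCM6 and MCM2, for ORC6, ORC3 and ORC5, and for ORC4 and ORC1. TK1 had the highest level of the 46 genes at 227 ± 15.4 CPM per kb and POLA1, the catalytic subunit of polymerase alpha, the lowest at 0.536 ± 0.130. Reads were counted without regard to strand, and a read that aligned to several places was counted in every place. The counts of TYMS, which shares 60% of its transcript with the antisense gene ENOSF1, of POLA2, MCM2 and GINS4, which share between 30.4% and 55.8% with other annotated genes, and of 10 genes with pseudogenes in the table (FEN1, ORC1, PCNA, POLD2, RFC3, RFC5, RPA2, RPA3, RRM2 and TYMS) are therefore uncertain.

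With DMSO, the replication genes were unevenly associated with polysomes. The catalytic subunits of the replicative polymerases, most helicase subunits, the Okazaki fragment enzymes, ribonucleotide reductase and UHRF1 were higher in polysome-associated than in total RNA, whereas 3 of the 6 ORC subunits, part of the clamp loader and the small subunits RPA3, POLD2 and POLE2 were lower. Here a gene was called when edgeR's quasi-likelihood test gave a Benjamini-Hochberg adjusted p below 0.15 over all 12058 genes with a difference of more than 1.2-fold. Of the 46 genes, 18 were called higher (39.1%) and 11 lower (23.9%), where 27.7% of all genes tested were called higher and 30.6% lower. The median of the 46 log2 differences was 0.17, against -0.02 over all genes.
POLD1 (chromosome 19, 50384204 to 50418018, plus strand), the catalytic subunit of polymerase delta, had the highest ratio. It reached 19.9, 26.3, 25.2 and 12.5 CPM in the total RNA of replicates 1 to 4 and 56.2, 81.4, 65.9 and 73.6 CPM in their polysomes, a log2 difference of 1.76 (SE 0.203, adjusted p = 7.64e-09). POLE (chromosome 12, 132623753 to 132687376, minus strand), the catalytic subunit of polymerase epsilon, went from 9.13, 8.45, 8.50 and 11.9 CPM in total RNA to 22.8, 26.6, 27.8 and 41.1 CPM in polysomes, a difference of 1.62 (SE 0.215, adjusted p = 1.23e-07). In both genes every polysome library was higher than every total RNA library, a separation whose share over all genes tested was not counted.
UHRF1 (chromosome 19, 4903080 to 4962154, plus strand) showed the same with 17.9, 16.1, 11.9 and 16.4 CPM in total RNA and 30.6, 33.2, 32.3 and 53.3 CPM in polysomes, a difference of 1.24 (SE 0.209, adjusted p = 7.23e-06). The other genes called higher were MCM2 (0.97), MCM5 (0.65), MCM6 (0.38) and MCM7 (1.00) of the helicase, CDT1 (1.102), CDC45 (0.40), the large clamp loader subunit RFC1 (0.78), the large RPA subunit RPA1 (0.45), POLA1 (1.05), POLA2 (0.65), the primase subunit PRIM2 (0.53), FEN1 (0.80), LIG1 (1.103), RRM1 (0.81) and RRM2 (0.45). No helicase subunit, Okazaki fragment enzyme or nucleotide enzyme of the list was called lower.

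RPA3 (chromosome 7, 7636518 to 7718607, minus strand), the smallest subunit of replication protein A, had the lowest ratio. Its 186, 292, 139 and 141 CPM in total RNA stood against 70.7, 92.4, 49.4 and 49.6 CPM in polysomes, a log2 difference of -1.51 (SE 0.169, adjusted p = 3.84e-09). GINS2 (chromosome 16, 85676198 to 85690073, minus strand), a GINS subunit, had 103, 31.0, 50.8 and 65.7 CPM in total RNA and 30.5, 24.7, 27.8 and 27.6 CPM in polysomes, a difference of -1.06 (SE 0.205, adjusted p = 5.77e-05). For POLD2 (chromosome 7, 44114631 to 44124358, minus strand), an accessory subunit of polymerase delta, 337, 323, 351 and 316 CPM in total RNA stood against 197, 229.7, 217 and 173 CPM in polysomes, a difference of -0.71 (SE 0.162, adjusted p = 4.91e-04). In all 3 genes each total RNA library was above each polysome library, so the catalytic and the accessory subunit of polymerase delta, POLD1 and POLD2, lay on opposite sides. The share of all genes tested that separated in this direction was not counted. The other genes called lower were ORC3 (-0.53), ORC4 (-0.62), ORC6 (-0.51), GMNN (-0.37), RFC2 (-0.68), RFC4 (-0.40), RFC5 (-0.45) and POLE2 (-0.49), an accessory subunit of polymerase epsilon.
The ratio was higher for longer transcripts among the 46 genes (Spearman's rho 0.426) and among 11665 genes tested with an annotated transcript (0.450), as a description across genes of the same libraries. It was also higher for transcripts with a higher GC content, with rho 0.432 among the 46 genes and 0.230 among the 11665. The 46 transcripts had a median length of 2866 nt, against 2914 nt over all genes. Of the 29 calls, 21 remained in each fit without 1 replicate. MCM6 and RFC5 were lost without replicate 1, ORC3, GMNN and POLE2 without replicate 2, ORC3, GMNN, CDC45, RFC4, PRIM2 and POLE2 without replicate 3, and MCM6, GMNN, RFC4 and PRIM2 without replicate 4, with differences of 0.29 to 0.49 and -0.40 to -0.20 in those fits. When libraries were scaled within each fraction, the median of all genes shifted by 0.28 and the calls became 25 higher and 5 lower, with 41.0% and 21.1% of all genes, so the balance between higher and lower depends on that scaling. Without a block for the replicate in the fit, 14 genes were higher and 7 lower, and the shares of all genes in that fit are not given here.

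**Figure D1:**
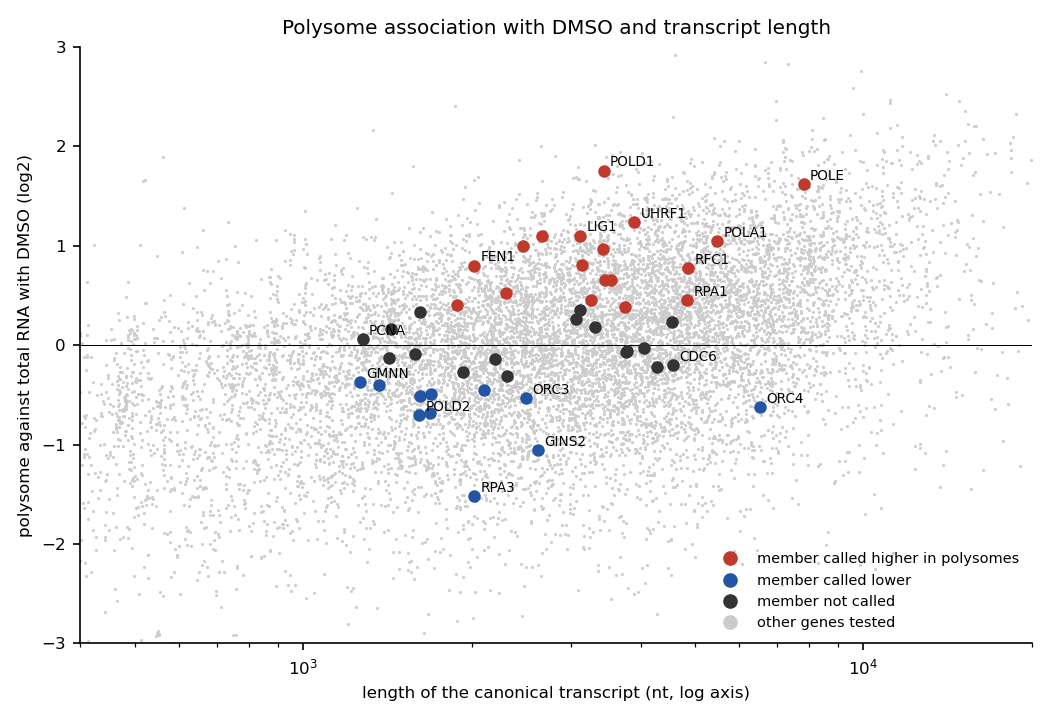
Log2 difference between polysome-associated and total RNA with DMSO (vertical axis) against the length of the canonical transcript in nt (horizontal log axis) for the replication genes (large points) and the other genes tested (grey, those outside the axes not drawn). POLD1 at 1.76 and POLE at 1.62 lie at the top of the replication genes, and RPA3 at -1.51 and GINS2 at -1.06 at the bottom.

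In total RNA, no replication gene was called with either compound by edgeR's quasi-likelihood test at an adjusted p below 0.15. At an unadjusted p below 0.05, 0 genes were higher and 8 lower with CID661578, and 2 were higher and 5 lower with cercosporamide. At that threshold 3.65% of all genes tested were higher and 3.52% lower with CID661578, and 6.61% and 4.67% with cercosporamide. DESeq2 called 1 gene lower with each, PCNA with CID661578 (-0.62 in edgeR) and CDC6 with cercosporamide (-0.62 in edgeR). Over all genes tested, edgeR called 0.315% higher and 0.133% lower with CID661578, and 0.29% higher and 0.0912% lower with cercosporamide. The estimates of the 46 genes leaned downwards, with 30 below 0 and a median of -0.15 for CID661578 and 33 below 0 and a median of -0.12 for cercosporamide, where the median of all genes was -0.01 in both comparisons. These 2 comparisons share the DMSO libraries. Between the compounds, 0 genes were called in total RNA (1 higher and 3 lower with CID661578 at an unadjusted p below 0.05, as were 4.39% and 4.95% of all genes, and GINS1 called lower by DESeq2), with 0.323% of all genes called higher and 0.249% lower.
RRM2 (chromosome 2, 10120698 to 10211725, plus strand), the small subunit of ribonucleotide reductase whose level rises in S phase, was the only replication gene whose total RNA groups did not overlap. It had 383, 371, 552 and 451 CPM with DMSO, 301, 306, 323 and 315 CPM with CID661578 and 306, 284, 348 and 368 CPM with cercosporamide in replicates 1 to 4. Every treated library lay below the lowest DMSO library, with estimates of -0.48 (SE 0.171, adjusted p = 0.532) and -0.42 (SE 0.171, adjusted p = 0.372) that edgeR did not call. Groups that lay below DMSO without overlap were found for 1.29% of all genes with CID661578 and 2.07% with cercosporamide.

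After CID661578 treatment, 5 replication genes changed in polysome-associated RNA (edgeR, adjusted p below 0.15), and no gene passed the test for translational efficiency (TE), which is how much the polysome level moves beyond the total level. The ORC subunits ORC3 and ORC4 rose, and ORC1, MCM4 and RRM2 fell. The 2 calls higher are 4.35% of the 46 genes and the 3 calls lower are 6.52%, where 6.16% of all genes tested were called higher and 3.96% lower. The median change was -0.19, against -0.01 over all genes.
ORC1 (chromosome 1, 52372829 to 52404423, minus strand), an ORC subunit that binds and hydrolyses ATP and whose protein cycles through the cell cycle, changed most. Its polysome level was 22.7, 15.3, 20.4 and 26.8 CPM with DMSO and 8.94, 7.51, 8.87 and 10.2 CPM with CID661578, without overlap and with a log2 change of -1.24 (SE 0.278, adjusted p = 0.0155). In total RNA it had 15.7, 19.5, 6.94 and 31.0 CPM with DMSO and 10.2, 7.91, 14.8 and 10.0 CPM with CID661578, which overlap, and a change of -0.61 (SE 0.389, adjusted p = 0.824). Its call in polysomes remained in each of the 4 fits without 1 replicate. CDT1 was the other gene whose polysome libraries all lay below DMSO, with 19.0, 19.2, 18.2 and 18.3 CPM with DMSO and 11.7, 16.4, 14.0 and 11.2 CPM with CID661578 and a change of -0.51 (SE 0.206, adjusted p = 0.179), which edgeR did not call and DESeq2 did. Polysome groups lay above DMSO without overlap for 3.83% of all genes, none of them a replication gene, and below for 2.92%.
MCM4, a subunit of the replicative helicase, had 81.0, 62.8, 149 and 159.8 CPM in polysomes with DMSO and 69.3, 43.5, 82.7 and 75.6 CPM with CID661578, a change of -0.70 (SE 0.211, adjusted p = 0.0708). RRM2 had 500.5, 409, 839 and 718 CPM with DMSO and 401, 323, 459.5 and 470.3 CPM with CID661578, a change of -0.55 (SE 0.177, adjusted p = 0.0918). The treated levels of both genes lay in the lower part of the DMSO range or below it. In total RNA, MCM4 had 78.2, 122, 107 and 131 CPM with DMSO, 69.8, 57.3, 93.7 and 87.3 CPM with CID661578 and 71.2, 75.9, 72.0 and 105 CPM with cercosporamide. The changes of both genes in total RNA, -0.50 (SE 0.202) and -0.48 (SE 0.171), had the same sign and were not called.
In the other direction, ORC3 (chromosome 6, 87590067 to 87667453, plus strand), a core ORC subunit, went from 70.9, 34.4, 37.1 and 49.96 CPM to 98.4, 55.3, 64.7 and 94.9 CPM in polysomes, a change of 0.71 (SE 0.189, adjusted p = 0.0443). ORC4 (chromosome 2, 147930396 to 148021604, minus strand), another core subunit, went from 47.6, 32.1, 27.8 and 32.4 CPM to 70.6, 45.3, 58.4 and 49.1 CPM, a change of 0.67 (SE 0.183, adjusted p = 0.0485). In total RNA with DMSO and CID661578, ORC3 had 58.3, 74.4, 66.5 and 68.0 CPM and 93.8, 88.4, 79.9 and 70.2 CPM, and ORC4 had 61.3, 87.3, 41.3 and 35.2 CPM and 76.5, 51.2, 57.9 and 41.1 CPM. The polysome groups of both genes overlap, and each replicate was higher than the DMSO replicate of its number. MCM4, ORC3, ORC4 and RRM2 were no longer called without replicate 3 (changes of 0.52 to 0.65 and -0.67 to -0.46), MCM4 and RRM2 without replicate 4 (-0.57 and -0.53) and RRM2 without replicate 1 (-0.62). Without the replicate block in the fit, all 5 calls were lost.
For TE with CID661578, edgeR called 0 of the 46 genes, DESeq2 and an analysis of partial variance also called 0, and 1 gene was higher and 0 lower at an unadjusted p below 0.05, as were 4.92% and 3.95% of all genes. That gene was ORC4 at 0.62 (SE 0.252, adjusted p = 0.490), with a 95% interval of 0.10 to 1.14. Over all genes, edgeR called 0.00829% higher and 0.199% lower, and the shares for DESeq2 and the analysis of partial variance are not given here. The study, which used anota2seq, reported more mRNAs of changed translational efficiency shared by the compounds than the 1 higher and 24 lower called here. The 0 calls thus belong to the tests used here and do not show that TE was unchanged. The lowest estimate was that of POLD1 at -0.77 (SE 0.391), and the median was 0.00, against 0.03 over all genes. The intervals are wide enough to hold sizeable changes, for example -0.08 to 0.90 for ORC3 and -0.21 to 0.78 for RRM1. RFC3 was the only gene whose polysome to total ratios all lay above those of DMSO, which 2.74% of all genes did (1.68% lay below). It had 42.4, 18.9, 27.6 and 41.4 CPM in polysomes and 43.99, 19.1, 25.4 and 35.8 CPM in total RNA with CID661578.
The other genes described by library had the following levels with CID661578, and for none of them was a change in either fraction or in TE called by edgeR. ORC5 had 55.5, 27.0, 52.6 and 44.1 CPM in polysomes and 56.3, 19.99, 47.4 and 29.0 CPM in total RNA, and CDC6 had 59.9, 26.2, 52.1 and 51.5 CPM and 70.7, 31.1, 43.4 and 52.2 CPM. MCM6 had 70.0, 31.3, 63.0 and 77.3 CPM in polysomes and 54.4, 40.3, 46.1 and 41.9 CPM in total RNA. For GINS2 the levels were 25.2, 16.9, 26.4 and 24.1 CPM in polysomes and 74.0, 32.5, 44.5 and 53.4 CPM in total RNA. In these 4 genes both fractions overlap with DMSO.
RPA1 had 148, 76.0, 113 and 134 CPM in polysomes and 135, 67.4, 73.9 and 90.4 CPM in total RNA, and RPA3 had 74.96, 117, 90.3 and 82.3 CPM and 224, 237, 224 and 173 CPM. UHRF1 had 31.8, 40.1, 25.1 and 31.6 CPM in polysomes and 15.7, 19.6, 6.42 and 15.6 CPM in total RNA. For these genes too the libraries of both fractions overlap with DMSO.
Among polymerase subunits, POLD1 had 47.1, 141, 51.7 and 28.2 CPM in polysomes and 16.9, 69.5, 19.8 and 27.2 CPM in total RNA, with replicate 2 the highest in both. POLD2 had 192, 242, 145 and 165 CPM and 163, 431, 364 and 401 CPM, with replicate 1 the lowest in total RNA. POLE had 17.4, 26.7, 23.8 and 19.8 CPM and 4.72, 6.37, 11.4 and 8.73 CPM, and its levels in polysomes stayed above those in total RNA in every plate.

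After cercosporamide treatment, TE rose for 13 replication genes and fell for 3 (edgeR, adjusted p below 0.15 and more than 1.2-fold). The genes that rose were ORC2, ORC3, ORC4 and ORC5, the loading factor CDC6, geminin (GMNN), which inhibits CDT1, the helicase subunits MCM3 and MCM6 with MCM10, the clamp loader subunits RFC3 and RFC4, RPA1, and RRM1, the large subunit of ribonucleotide reductase. Those that fell were ORC6, GINS2 and RPA3. The 13 are 28.3% of the 46 genes and the 3 are 6.52%, where edgeR called 15.8% of all genes tested higher and 12.6% lower. The median TE change was 0.29, against 0.00 over all genes, and 34 of the 46 estimates were above 0. The median over the 46 genes was 0.47, 0.49, 0.05 and 0.23 in replicates 1 to 4, each against the DMSO plate of the same number, where the median over all genes was 0.03, -0.02, 0.12 and -0.03. In replicate 3 the replication genes thus lay below all genes. TE was higher in all 4 replicates for 12 genes and lower in all 4 for 3, where 19.1% and 15.3% of all genes moved in this way. In polysome-associated RNA alone, 10 genes rose (21.7%) and 3 fell (6.52%), with 18.3% of all genes called higher and 13.8% lower. The analysis of partial variance, the approach closest to that of the study, gave fewer TE calls, 8 higher and 1 lower, with 14.9% and 11.6% of all genes. It did not call CDC6 (0.54), RPA1 (0.51), MCM10 (0.36), GMNN (0.33), GINS2 (-0.45), RPA3 (-0.54) or ORC2, and its median over the 46 genes was 0.18. DESeq2 called the 16 genes that edgeR called.

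**Figure D2:**
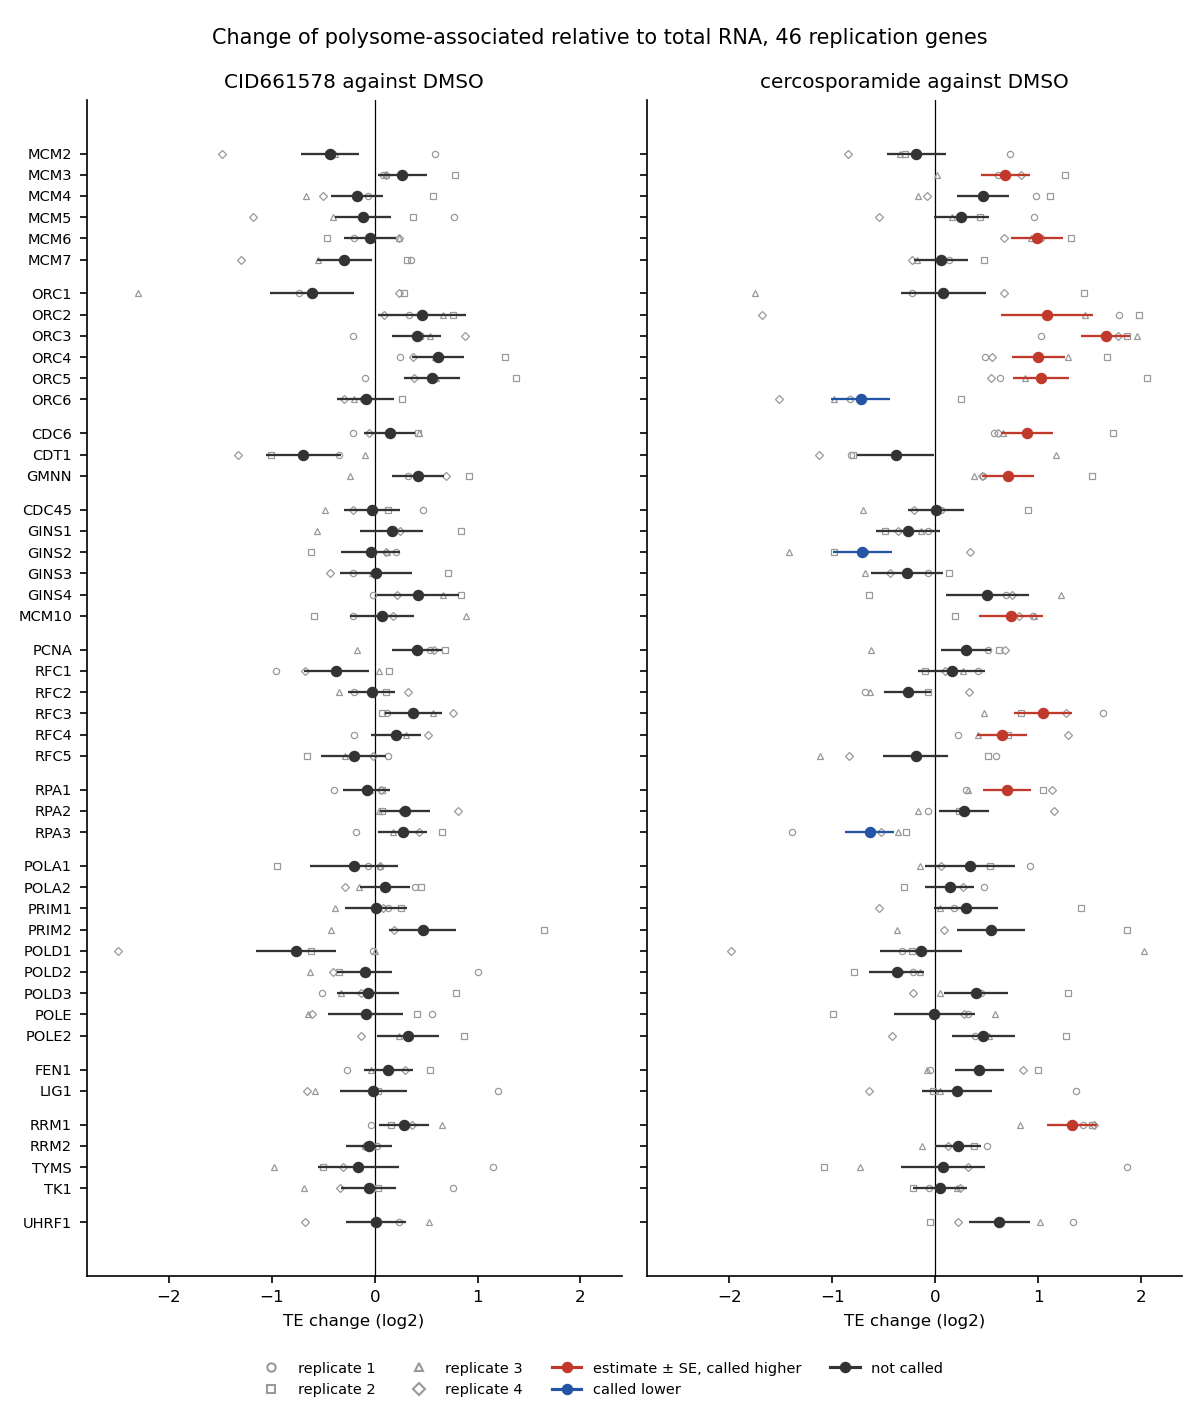
TE change (log2, horizontal axis) of each replication gene, in order of role, for CID661578 (left) and cercosporamide (right) against DMSO. Large points are edgeR estimates with SE bars, coloured where called, and small open symbols are the 4 replicates; 13 genes are called higher and 3 lower on the right, and none on the left.

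Of the 6 subunits of the origin recognition complex, 4 rose in TE and 1 fell. The complex had the most calls of any role without the GC correction described below, and the helicase, with 4, had more than its 3 with that correction. ORC3 had 174, 101, 191 and 246 CPM in polysomes with cercosporamide, where it had 34.4 to 70.9 CPM with DMSO, and 70.2, 60.2, 87.7 and 97.6 CPM in total RNA, where it had 58.3 to 74.4 CPM with DMSO. The polysome groups did not overlap, and the mean rose from 48.1 ± 16.6 CPM to 178 ± 59.7 CPM (SD, n = 4). Its change was 1.88 (SE 0.195, adjusted p = 4.01e-06) in polysomes and 1.66 (SE 0.241, adjusted p = 1.43e-04) in TE by edgeR, the lowest adjusted p among the 46 genes for TE.
ORC4 had 75.7, 56.9, 85.5 and 79.4 CPM in polysomes with cercosporamide against 27.8 to 47.6 CPM with DMSO, and 69.5, 48.6, 51.9 and 58.7 CPM in total RNA against 35.2 to 87.3 CPM. Its TE change was 1.00 (SE 0.254, adjusted p = 0.00894). ORC5 (chromosome 7, 104126341 to 104208047, minus strand), a further core subunit, had 68.4, 54.0, 78.3 and 72.2 CPM in polysomes against 40.8, 23.7, 39.7 and 36.7 CPM with DMSO, and 41.8, 24.9, 58.2 and 42.3 CPM in total RNA against 38.7, 45.6, 53.9 and 31.4 CPM, with a TE change of 1.03 (SE 0.274, adjusted p = 0.0124). ORC3, ORC4 and ORC5 were the replication genes whose polysome libraries with cercosporamide all lay above DMSO, which 8.43% of all genes did.
ORC6, the subunit least tightly tied to the core complex, was the 1 replication gene whose polysome libraries all lay below DMSO, which 5.73% of all genes did. It had 28.2, 28.8, 33.3 and 32.5 CPM with DMSO and 15.0, 17.5, 19.1 and 11.3 CPM with cercosporamide, with a TE change of -0.72 (SE 0.285, adjusted p = 0.0847). ORC2 had 8.59, 6.16, 9.98 and 10.7 CPM in polysomes with DMSO and 14.5, 13.7, 16.9 and 3.97 CPM with cercosporamide, where the low value of replicate 4 comes from 6 reads, and a TE change of 1.09 (SE 0.447, adjusted p = 0.0968). The analysis of partial variance gave ORC2 the opposite sign, -0.47. ORC1, with 19.0, 13.0, 4.17 and 16.6 CPM in polysomes and 15.3, 6.06, 4.76 and 12.0 CPM in total RNA with cercosporamide, fell in polysomes by edgeR, with a change of -0.77 (SE 0.286), with a TE change of 0.08 (SE 0.414, adjusted p = 0.923) that was not called.

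**Figure D3:**
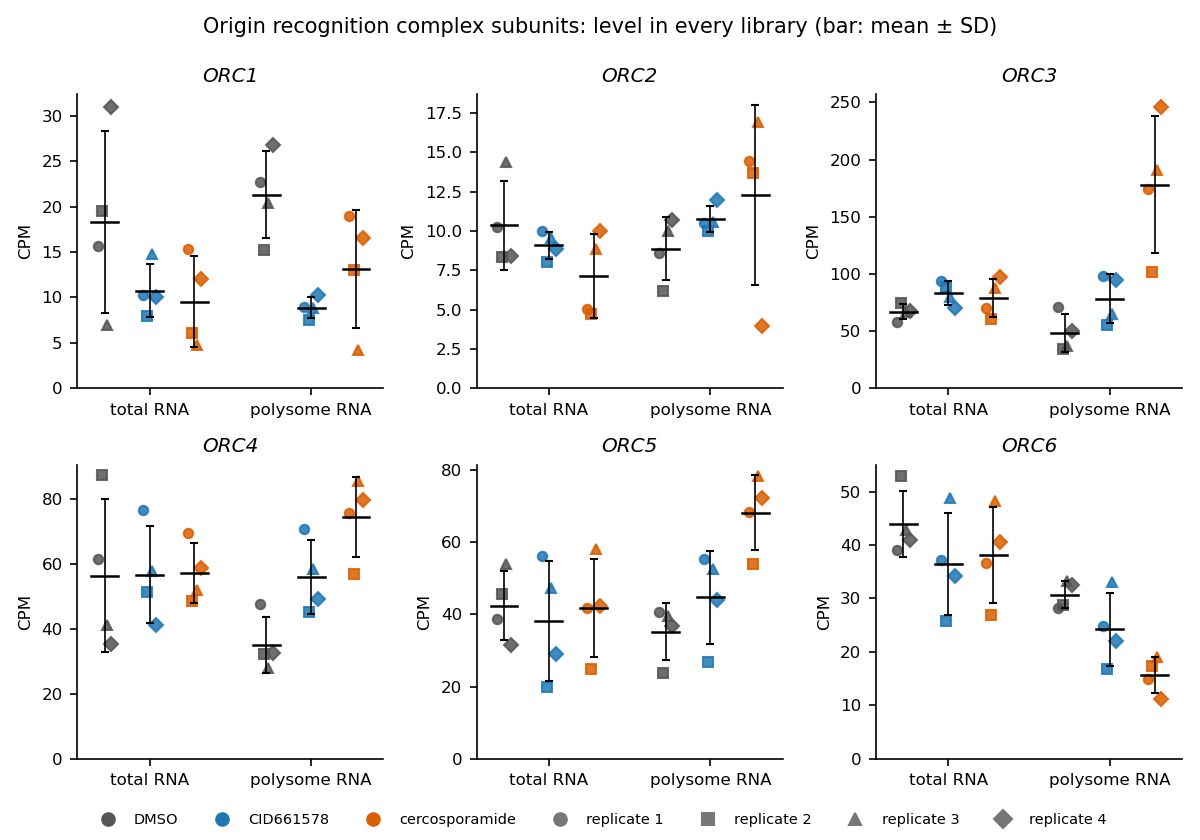
CPM (linear vertical axes from 0) of ORC1 to ORC6 in total and polysome-associated RNA in every library, with mean ± SD over 4 replicates. ORC3, ORC4 and ORC5 lie above DMSO in all 4 polysome libraries with cercosporamide, ORC6 lies below in all 4, and ORC1 lies below in all 4 polysome libraries with CID661578.

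Of the 6 helicase subunits, MCM3 and MCM6 rose in TE and the other 4 were not called. MCM6 (chromosome 2, 135839626 to 135876443, minus strand) had 35.7, 31.3, 61.9 and 47.8 CPM in total RNA with DMSO and 29.3, 24.7, 37.1 and 40.4 CPM with cercosporamide, and 52.9, 33.6, 71.9 and 74.7 CPM and 88.8, 66.2, 82.5 and 101 CPM in polysomes. The log2 ratio of polysome-associated to total RNA of each plate was 0.57, 0.10, 0.22 and 0.64 with DMSO and 1.598, 1.42, 1.15 and 1.32 with cercosporamide, without overlap, and the TE change was 0.99 (SE 0.252, adjusted p = 0.00929). Its promoter, printed above, holds overlapping motif matches, and among genes with an entry a match was found for 6 of 13 called higher in TE, 13 of 25 not called and 1 of 2 called lower. MCM3 had ratios of 0.51, -0.39, 0.69 and 0.23 with DMSO and 1.12, 0.87, 0.72 and 1.07 with cercosporamide, and a TE change of 0.68 (SE 0.239, adjusted p = 0.0528). MCM4, with 146, 84.7, 90.0 and 122 CPM in polysomes with cercosporamide, was within its DMSO range. MCM2 (-0.18), MCM4 (0.47), MCM5 (0.25) and MCM7 (0.05) completed the ring. The ring's subunits thus ranged from -0.18 to 0.99 in TE change.

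Among loading factors, CDC6 (chromosome 17, 40287879 to 40304657, plus strand), the ATPase that brings the helicase to ORC, had 76.3, 60.04, 60.2 and 84.3 CPM in total RNA with DMSO and 59.3, 30.01, 34.8 and 67.2 CPM with cercosporamide, and 74.9, 37.9, 53.6 and 86.3 CPM and 86.5, 62.9, 49.0 and 105 CPM in polysomes. Its plate ratios were -0.03, -0.66, -0.17 and 0.03 with DMSO and 0.54, 1.07, 0.49 and 0.65 with cercosporamide, which do not overlap although the levels of either fraction do, and its TE change was 0.89 (SE 0.253, adjusted p = 0.0180). GMNN rose in TE by 0.71 (SE 0.250) and CDT1, the factor that geminin binds, had -0.38 (SE 0.376) without a call. Of the helicase activators, MCM10 rose by 0.74 (SE 0.312), GINS2 fell, and CDC45 (0.01), GINS1 (-0.26), GINS3 (-0.27) and GINS4 (0.51) were not called. GINS2 had 18.8, 13.4, 13.2 and 35.1 CPM in polysomes with cercosporamide and 102, 33.2, 64.7 and 66.0 CPM in total RNA, with a TE change of -0.71 (SE 0.289, adjusted p = 0.0960). Its polysome level in replicate 4 was above all DMSO libraries and those of the other 3 replicates were below them.

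Among factors of the fork, RFC3 (chromosome 13, 33818069 to 33966558, plus strand), a small clamp loader subunit, had 21.2, 22.8, 24.8 and 26.0 CPM in polysomes with DMSO and 44.98, 22.9, 49.6 and 56.9 CPM with cercosporamide, and 23.9, 24.2, 33.7 and 37.9 CPM and 16.3, 13.6, 48.5 and 34.4 CPM in total RNA. Its plate ratios were -0.17, -0.09, -0.44 and -0.55 with DMSO and 1.46, 0.75, 0.03 and 0.73 with cercosporamide, and its TE change was 1.05 (SE 0.283, adjusted p = 0.0134). RFC4 rose by 0.65 (SE 0.244), and PCNA (0.30), RFC1 (0.16), RFC2 (-0.27) and RFC5 (-0.19) were not called.
The subunits of replication protein A went in opposite directions. RPA1 (chromosome 17, 1829702 to 1900082, plus strand), which holds the main DNA-binding domains, had plate ratios of 0.52, 0.10, 0.66 and 0.51 with DMSO and 0.82, 1.15, 0.98 and 1.65 with cercosporamide, from 138, 72.2, 163 and 173 CPM and 166, 119, 129 and 232 CPM in polysomes and 95.9, 67.3, 103 and 122 CPM and 93.8, 53.6, 65.6 and 74.0 CPM in total RNA. Its TE rose by 0.70 (SE 0.233, adjusted p = 0.0421). RPA3 had ratios of -1.40, -1.66, -1.49 and -1.51 with DMSO and -2.79, -1.95, -1.85 and -2.03 with cercosporamide, from 36.9, 60.2, 72.6 and 60.9 CPM in polysomes and 255, 232, 262 and 248 CPM in total RNA with cercosporamide. The TE change of RPA3 was -0.64 (SE 0.238, adjusted p = 0.0688), and RPA2 had 0.28 without a call. RPA3 was the 1 replication gene whose ratios all lay below those of DMSO, which 8% of all genes did, while MCM3, MCM6, ORC3, ORC4, ORC5, CDC6, MCM10, RFC3, RPA1 and RRM1 lay above, which 10.9% of all genes did.
RRM1 (chromosome 11, 4094707 to 4138932, plus strand) had 246, 157, 219 and 345 CPM in polysomes with DMSO and 473, 340.3, 406 and 636 CPM with cercosporamide, and 132, 86.2, 158 and 172 CPM and 94.1, 64.7, 165 and 109 CPM in total RNA. Its plate ratios were 0.89, 0.87, 0.47 and 1.00 with DMSO and 2.33, 2.39, 1.30 and 2.55 with cercosporamide, without overlap, and its TE change was 1.33 (SE 0.241, adjusted p = 7.97e-04), the next lowest adjusted p after ORC3. The small subunit RRM2, with 565, 408, 484 and 639 CPM in polysomes, had a TE change of 0.22 (SE 0.224, adjusted p = 0.547), which was not called, and TYMS (0.08) and TK1 (0.04) were not called either.
None of the 9 polymerase and primase genes passed, with TE changes from -0.37 for POLD2 to 0.54 for PRIM2, and neither did FEN1 (0.43), LIG1 (0.21) or UHRF1 at 0.62 (SE 0.299, adjusted p = 0.162). POLD1 had 67.7, 162, 54.7 and 24.5 CPM in polysomes and 30.1, 61.1, 5.14 and 16.5 CPM in total RNA with cercosporamide and a TE change of -0.14 (SE 0.402). POLE had 30.1, 28.3, 21.5 and 19.9 CPM and 9.65, 17.9, 4.37 and 4.76 CPM and a change of -0.01 (SE 0.392). For UHRF1 the levels were 71.3, 41.9, 25.5 and 53.0 CPM and 16.5, 21.0, 4.63 and 14.0 CPM, and for POLD2 171, 187, 173 and 171 CPM and 338, 453, 309 and 396 CPM. The 95% intervals of the TE change were -0.82 to 0.80 for POLE, -0.97 to 0.69 for POLD1 and 0.01 to 1.24 for UHRF1.
In polysome-associated RNA, the 10 genes that rose were ORC3, ORC4 (1.09), ORC5 (0.98), RRM1 (0.96), RFC3 (0.79), MCM6 (0.59), RFC4 (0.58), POLE2 (0.48), MCM3 (0.47) and FEN1 (0.41), and those that fell were ORC6 (-0.94), ORC1 (-0.77) and GINS2 (-0.60). The calls of ORC3, ORC4, ORC5, ORC6, RFC3 and RRM1 remained in each fit without 1 replicate. Lost calls were MCM3, GINS2 and FEN1 without replicate 1 (0.33 to 0.46 and -0.56), MCM3, MCM6, GINS2, POLE2 and FEN1 without replicate 2 (0.25 to 0.45 and -0.49), ORC1, GINS2 and POLE2 without replicate 3 (0.27, and -0.48 to -0.42) and RFC4 and FEN1 without replicate 4 (0.25 to 0.35). Without the replicate block, 5 genes rose (ORC3, ORC4, ORC5, RFC3 and RRM1) and ORC6 fell. The shares of all genes in that fit are not given here. When each library was corrected for its trend with GC content, 9 genes rose and 2 fell, with 14.3% and 11.3% of all genes. RFC3 (0.29), POLE2 (0.07), ORC1 (-0.59) and GINS2 (-0.46) were then not called, and UHRF1 (0.54) and RRM2 (-0.43) were.
In TE, the calls of MCM6, ORC3, ORC4, RFC3 and RRM1 remained in each such fit. ORC2, ORC6, GINS2, MCM10 and RPA3 were lost without replicate 1 (0.66 to 0.83 and -0.71 to -0.38), MCM3, ORC2, ORC5, CDC6, GMNN, GINS2, RFC4 and RPA1 without replicate 2 (0.44 to 0.77 and -0.62), ORC2, ORC6, GINS2 and MCM10 without replicate 3 (0.63 to 0.92 and -0.66 to -0.49) and MCM3, ORC6, MCM10, RFC4 and RPA1 without replicate 4 (0.41 to 0.67 and -0.56). Without only the plate that gave the shallow library, ORC6, MCM10 and RFC4 were lost (0.50 to 0.73 and -0.55).

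**Figure D4:**
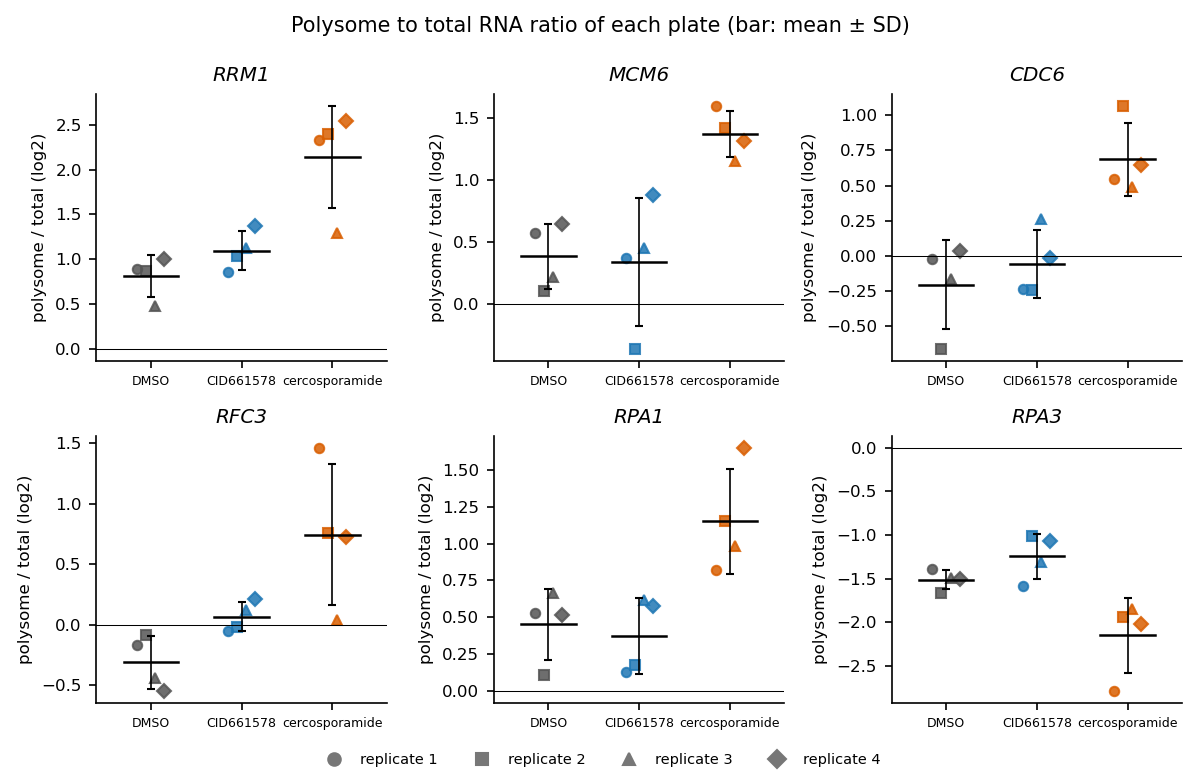
Log2 ratio of polysome-associated to total RNA (vertical axes) of each plate for RRM1, MCM6, CDC6, RFC3, RPA1 and RPA3 by treatment, with mean ± SD over 4 replicates. In the 5 genes other than RPA3 all cercosporamide plates lie above all DMSO plates, and in RPA3 they lie below.

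Transcript GC content varied with the TE changes. Across the 46 genes, Spearman's rho between GC content and TE change was -0.574 with cercosporamide and -0.578 with CID661578, and it was -0.534 and -0.565 across 11665 genes tested, with all genes of a comparison measured in the same libraries. The replication transcripts had a median GC content of 46.3%, with a range of 37.4% to 64.8%, against a median of 47.5% for all. ORC4 (37.4%), RFC3 (38.0%), ORC3 (39.2%), ORC2 (40.0%) and ORC5 (41.2%), which rose in TE, lay at the low end. In each library, the log2 CPM of each gene less its mean over the 24 libraries was regressed on GC content. In polysome libraries the mean slope per 10% GC was 0.179 with DMSO (range 0.076 to 0.328). It was -0.075 with CID661578 (-0.237 to 0.297) and -0.133 with cercosporamide (-0.367 to 0.169). In total RNA the means were -0.043 (-0.105 to -0.0096), 0.0008 (-0.412 to 0.262) and 0.071 (-0.372 to 0.493) in the same order. The ranges of the treatments overlap in both fractions.
When each library was corrected for its trend with GC content, 11 genes were called higher in TE with cercosporamide and 3 lower, of which 7 and 2 were also called without it, with 10.5% and 10.9% of all genes called. ORC3 (1.07), RRM1 (1.01), MCM3 (0.93), CDC6 (0.77), RPA1 (0.75), MCM6 (0.72) and ORC5 (0.58) remained called higher, and ORC6 (-0.75) and RPA3 (-0.67) lower. ORC2 (0.56), MCM10 (0.51), GMNN (0.48), RFC4 (0.46), RFC3 (0.40), ORC4 (0.33) and GINS2 (-0.57) were lost, and UHRF1 (0.93), FEN1 (0.69), MCM4 (0.56), MCM5 (0.56) and GINS1 (-0.66) were gained. The rises of ORC3 (0.42) and ORC4 (0.30) in polysomes with CID661578 were lost under the correction, and the 3 falls remained. What share of each change goes with GC content through the library preparation was not tested.

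**Figure D5:**
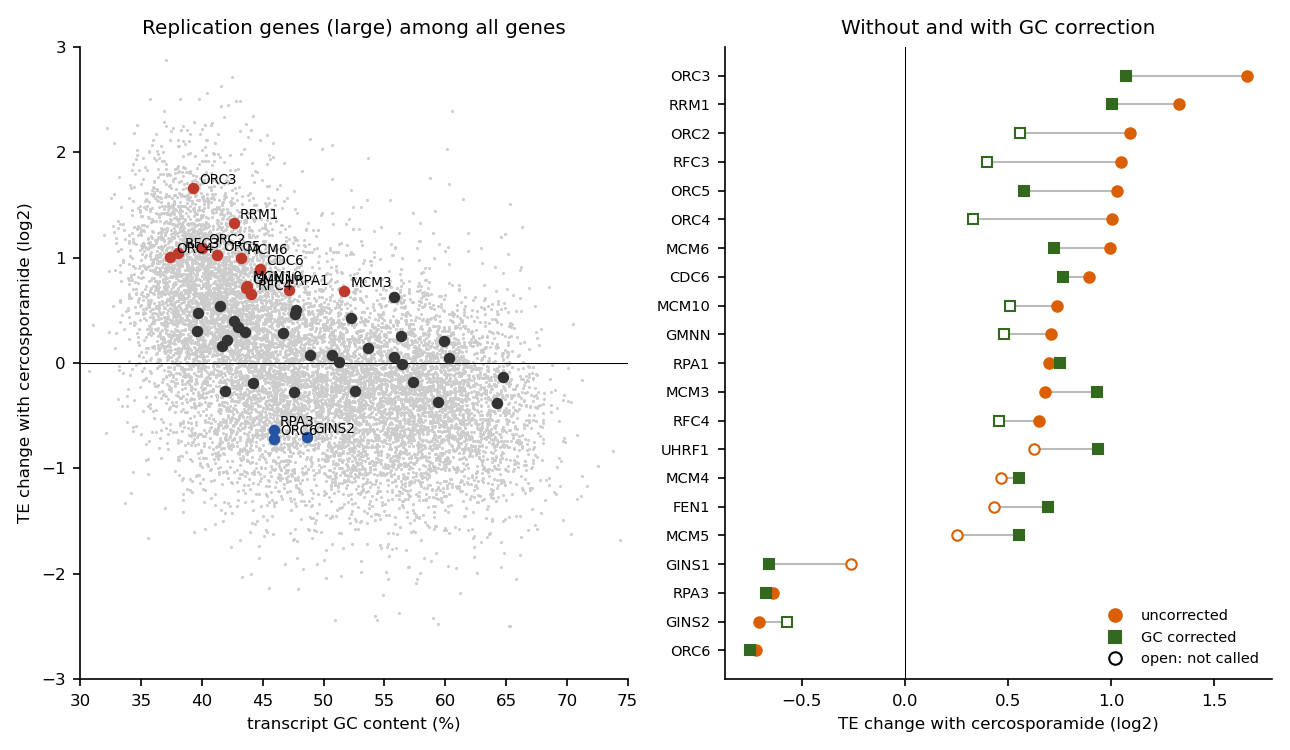
Left, TE change with cercosporamide (log2) against transcript GC content (%) for the replication genes (large points, coloured where called) and the other genes tested (grey, those outside the axes not drawn). Right, TE change of each gene called without (circles) or with (squares) a GC correction, open where not called; ORC3 moves from 1.66 to 1.07 and ORC4 from 1.00 to 0.33.

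The TE changes of the compounds were compared with each other in the same fit, at 40 µM CID661578 and 5 µM cercosporamide. The compounds differed in TE for 7 of the 46 genes by edgeR. RPA3 was higher with CID661578 (2.17% of the 46 genes), and MCM4, MCM6, ORC3, CDC6, RPA1 and RRM1 were lower (13.0%), where 7.93% of all genes were called higher and 7.57% lower. The median difference was -0.29, against -0.03 over all genes.
For ORC3 the difference was -1.25 (SE 0.239, adjusted p = 0.00728), from a TE change of 0.41 with CID661578 and 1.66 with cercosporamide, and the plate ratios with CID661578 were 0.07, -0.68, -0.30 and 0.44 against 1.31, 0.75, 1.12 and 1.34 with cercosporamide. For RRM1 it was -1.05 (SE 0.241, adjusted p = 0.0156), with 379, 185, 282 and 349.7 CPM in polysomes and 209, 90.8, 129 and 135 CPM in total RNA with CID661578 and plate ratios of 0.86, 1.03, 1.13 and 1.37. These ratios overlap for RRM1 in replicate 3 with cercosporamide and not for ORC3.
For MCM6 the difference was -1.04 (SE 0.253, adjusted p = 0.0183), with plate ratios of 0.36, -0.36, 0.45 and 0.88 with CID661578, all below those with cercosporamide. For RPA3 it was 0.91 (SE 0.238, adjusted p = 0.0267), with plate ratios of -1.58, -1.01, -1.31 and -1.07, all above those with cercosporamide. The remaining differences were -0.78 (SE 0.233, adjusted p = 0.0478) for RPA1, -0.75 (SE 0.253, adjusted p = 0.0802) for CDC6 and -0.64 (SE 0.256, adjusted p = 0.139) for MCM4. For MCM4 neither compound alone gave a TE call, DESeq2 did not call it, and the analysis of partial variance did not call MCM4, MCM6 or RPA1. ORC3 and RRM1 remained called in each fit without 1 replicate. Calls were lost for MCM4, CDC6 and RPA1 without replicate 1 (-0.80 to -0.50), for these with MCM6 and RPA3 without replicate 2 (-0.79 to -0.56, and 0.90 for RPA3), for MCM4 without replicate 3 (-0.69), and for MCM4, CDC6 and RPA1 without replicate 4 (-0.75 to -0.66).
For most genes a difference was not called, which does not show that the compounds act alike. The 95% interval of the difference, not adjusted for the number of genes, was -0.91 to 0.13 for ORC4, -1.03 to 0.09 for ORC5, -1.25 to -0.09 for RFC3 and -0.39 to 0.61 for PCNA.

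Related genes that are not among the 46 were examined as lists drawn up by function. With cercosporamide, 12 of 30 tested genes that act at origins and forks rose in TE and 4 fell, 5 of 20 nucleotide synthesis genes rose and 4 fell, 4 of 11 chromatin replication factors rose and 0 fell, and 3 of 17 genes of the E2F and RB family rose and 0 fell. The median changes were 0.22, 0.06, 0.51 and 0.26. Over all genes tested, 15.8% rose and 12.6% fell with a median of 0.00. With CID661578, edgeR called 0 of these genes in TE. Over the 4 lists together, 5 were higher and 2 lower at an unadjusted p below 0.05 in edgeR, as were 4.92% and 3.95% of all genes tested.
The genes with the lowest adjusted p in each list were POLE4, an accessory subunit of polymerase epsilon, at -1.40 (SE 0.282, adjusted p = 0.00179), and TOP2A, the topoisomerase that untangles daughter DNA, at 1.17 (SE 0.240, adjusted p = 0.00201). In nucleotide synthesis they were NME2 at -1.76 (SE 0.316, adjusted p = 7.34e-04) and the purine synthesis enzyme PAICS at 0.86 (SE 0.241, adjusted p = 0.0166). HAT1, which acetylates new histone H4, at 1.73 (SE 0.248, adjusted p = 1.40e-04), and the histone chaperone ASF1A at 0.90 (SE 0.266, adjusted p = 0.0230) led the chromatin list. In the E2F and RB family they were RB1, which restrains E2F factors, at 1.28 (SE 0.330, adjusted p = 0.0102), and LIN9, a subunit of the MuvB complex, at 1.24 (SE 0.360, adjusted p = 0.0211).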

How the data were processed

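Total cytosolic and polysome-associated RNA of 12 PANC-1 plates was sequenced as Smart-seq2 libraries. The deposited values are whole-number counts per gene, made by the authors with HISAT2 on hg38 and featureCounts in RSubread on RefSeq genes, without normalization. FastQC 0.11.8 and bcl2fastq 2.20.0.422 are named in the submitters' processing notes, with no version for HISAT2 or featureCounts.
Only genes counted in every library were kept, counts were scaled with TMM over all 24 libraries, and edgeR 4.0.16 in R 4.3.3 (quasi-likelihood test, Benjamini-Hochberg adjustment over 12058 genes) was used with a replicate block in each fraction. The TE fit had a term for each plate, for each replicate in the polysome fraction and for each compound in polysomes (6 residual degrees of freedom, common BCV 0.223). Calls were an adjusted p below 0.15, and for TE and for polysome against total RNA also more than 1.2-fold, the thresholds of the study. The study used anota2seq, which was not run here. Plate ratios are differences of log2 CPM without a prior count. A prior count of 2 was used for the slopes on GC content and the correlations between libraries.
The methods of the study name the replicate as batch. Treated and DMSO libraries of the same number deviated from their group means together, with r above 0.1 in 13 of 16 comparisons (range -0.0186 to 0.584). The edgeR fits with the main settings were tested on simulated data, which held no effect of replicate number or GC content. That test therefore does not cover such effects. The alternatives, among them DESeq2, the analysis of partial variance and the GC correction, were not tested on simulated data.
The 46 genes and the other lists were chosen with earlier results of these data known. All 46 are named, and values of every library are given for genes called with CID661578, for the 8 lowest adjusted p in TE with cercosporamide, for the 3 highest and 3 lowest ratios with DMSO and for the 4 lowest adjusted p between compounds. CDT1, MCM3, ORC2 and ORC6 were given by library after their values were seen. Of other lists, the 2 lowest adjusted p each are named.
Positions, lengths and GC content come from GENCODE v44 on GRCh38, where 39020 symbols of the table matched directly, 323 through older symbols and 15240 did not match. A comparison of 5′ UTRs was void because 79.9% of the genes tested had a value, below the minimum share set for such a comparison. Promoters are from RefSeq.
Alternatives were no replicate block, DESeq2 1.42.0, its size factors, TMM within each fraction, other filters, an adjusted p of 0.05, DMSO with 1 compound, an analysis of partial variance (limma 3.58.1), a GC correction with 5 spline degrees of freedom, and each replicate left out.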

Additional observations from a re-analysis of the deposited data

Results flagged for a closer look

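The TE changes of the compounds differed from each other by the contrast of their terms in edgeR, with Benjamini-Hochberg adjustment, for 7 replication genes, given as CID661578 minus cercosporamide on the log2 scale. The values were 0.91 for RPA3, -0.64 for MCM4, -1.04 for MCM6, -1.25 for ORC3, -0.75 for CDC6, -0.78 for RPA1 and -1.05 for RRM1. The doses were 40 µM and 5 µM.
Levels of 17 genes, the summed CPM of the 46 genes and the number of reads counted were examined in each group, 114 sets of 4 libraries in all. Of these, 4 held a library far from the other 3 by Dixon's test, which chance does in about 1 of 20 groups. UHRF1 had 53.3 CPM in the DMSO polysome library of replicate 4, where the others had 30.6 to 33.2. MCM4 had 105 CPM in the cercosporamide total RNA library of replicate 4, where the others had 71.2 to 75.9. POLD2 had 187 CPM in the cercosporamide polysome library of replicate 2, where the others had 171 to 173. The cercosporamide polysome library of replicate 4 held 1592459 reads, where the others held 10661874 to 11660094.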

How the results depend on the processing

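Counts are of the 46 genes. Shares of all genes called under the same setting follow only for part of the GC correction. The other counts here do not tell a change of the 46 genes from a change in calls over all genes. Without the replicate block, which gives up the pairing of plates by number, calls with CID661578 in polysomes went to 0 higher and 0 lower, those with cercosporamide to 5 and 1, and those lower in polysomes with DMSO to 7. At an adjusted p of 0.05, 1 gene was lower in polysomes with either compound, 8 rose and 0 fell in TE with cercosporamide, and 7 were lower with DMSO. With DESeq2, 1 gene was lower in each total RNA comparison, and 3 were higher in TE with CID661578 than with cercosporamide, as with its size factors in edgeR. With DMSO and 1 compound in the fit, 7 fell in polysomes with CID661578. With no filter, 5 rose in polysomes and 8 in TE with cercosporamide, 1 was lower in total RNA with CID661578 than with cercosporamide, and 6 were lower with DMSO. TMM within fractions gave 5 lower with DMSO and a median of 0.45. The analysis of partial variance gave 8 and 1 in TE with cercosporamide, with ORC2 reversed at -0.47. With the GC correction and the replicate block, total RNA had 1 lower with CID661578 (0.677% of all genes). It had 1 higher (4.93% of all genes) and 2 lower (1.62%) with cercosporamide and 1 lower between compounds. In polysomes with CID661578, 0 rose (1.58% of all genes). In TE, 10 were lower with CID661578 than with cercosporamide (8.54% of all genes).
Without 1 replicate, or without the plate of the shallow library, the ranges were 0 to 3 higher and 1 to 6 lower in polysomes with CID661578, 6 to 10 and 1 to 3 with cercosporamide, 6 to 14 and 0 to 3 in TE with cercosporamide, 0 to 2 and 2 to 7 in TE between compounds, 7 to 10 lower with DMSO, and 0 to 1 lower in total RNA between compounds, whose median ranged from -0.071 to 0.036. The shares of all genes called in these fits are not given here, and the cause of these moves was not tested. Of 938 values of single genes under alternatives, 749 kept their direction and side of the threshold and 188 kept only the direction. The depth of 1592459 reads limits genes such as ORC2 in that library.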
